A study of Mus musculus with 61 samples.

Results

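The transcripts described here are those of the 5 pro-survival members of the BCL2 family, Bcl2, Bcl2l1, Bcl2l2, Mcl1 and Bcl2l10. They were chosen by name, and all 5 had a row among the 23927 genes of the table. They were measured in 61 single-cell libraries from ovaries of wild-type CD-1 mice, an outbred stock, at postnatal day 5. Mice had been injected intraperitoneally 6 hours earlier with solvent or with doxorubicin, a drug that damages DNA and is used against cancer. The labels write the dose as 10 mg/kb, and since that unit gives no dose, the amount injected is uncertain. The groups were 16 control oocytes, 16 doxorubicin oocytes, 16 control granulosa cells and 13 doxorubicin granulosa cells. The labels tie no cell to an animal, litter or pool. Each group therefore counted as 1 sample, cells were not replicates, and differences are given without a test.

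BCL2 family proteins control the mitochondrial route of cell death. The effectors BAX, BAK and BOK can open the outer mitochondrial membrane, and the pro-survival members bind and hold back BAX and BAK. The BH3-only proteins are sensors of damage that bind the pro-survival members or the effectors. Once the membrane opens, cytochrome c reaches APAF1 and caspases are switched on. In the ovary this route is known for removing oocytes, both during the normal loss of early life and after damage to their DNA. The title of the series names ovarian damage by DNA-damaging anti-cancer drugs and the part of JNK in it, and the comparisons below ask which pro-survival transcripts each cell type held and how they differed after the drug.

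Libraries held between 6834594 and 31262609 counts, with group medians from 10826400 to 11478200. Levels are given as CPM, counts per 1000000 counts of the library or, for a group, of its summed libraries, so they are shares of the transcripts in a cell and not amounts. Intervals are 95% intervals for counting error only, and reads amplified without molecular identifiers are not independent molecules. In every oocyte library 17 oocyte markers summed to between 19407.5 and 68847.7 CPM, more than the 15 granulosa markers did. Of the doxorubicin oocytes, 3 stood apart with granulosa markers of 2003, 2667 and 3124 CPM, against a median of 83.8 CPM in their group. Endothelial markers had a median sum of 22.9 CPM in doxorubicin oocytes, against 0.27 CPM without the drug. For blood and immune markers the medians were 7.25 and 1.85 CPM. The part of these in the differences between the oocyte groups was not tested. Libraries labelled as granulosa cells were more mixed. The oocyte markers summed to more than the granulosa markers in 6 of the 16 control granulosa libraries and in 8 of the 13 from drug-treated mice, with medians of 2004 and 9804 CPM for the oocyte sum. Blood and immune markers reached 33714 CPM in doxorubicin granulosa cell 15, and all counts of Ptprc, which marks white blood cells, were 0 in both granulosa groups. Stroma markers had medians of 815 and 688 CPM in control and doxorubicin granulosa libraries. They exceeded the granulosa markers in control granulosa cells 2 and 16, among others, at 8342 and 4384 CPM. Values are therefore also given for 10 control oocytes, 11 doxorubicin oocytes, 10 control and 5 doxorubicin granulosa libraries chosen by their marker sums. The choice used oocyte and granulosa markers only. It kept doxorubicin granulosa cell 13, with 7961 CPM of stroma against 1649 CPM of granulosa markers, and doxorubicin granulosa cell 15.

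The genes lie on 5 chromosomes of the mouse build GRCm38, which is the mm10 build named in the submitters' processing notes. Positions come from the GENCODE M21 annotation. Mcl1 spans chr3:95658788-95663176 on the plus strand, and its longest coding transcript has 3 exons and 3418 bases. Bcl2l1 spans chr2:152780668-152831728 on the minus strand, with 8 coding transcripts, the longest of 2568 bases. Bcl2 spans chr1:106538178-106714274 on the minus strand and has a longest transcript of 7191 bases in 2 exons. Antisense to it lies D630008O14Rik, whose row held at most 0.66 CPM in any group, and reads of both could not be told apart without strand. Bcl2l2 spans chr14:54883377-54888234 on the plus strand, and Bcl2l10, the shortest at 1220 bases of transcript, spans chr9:75347758-75351632 on the plus strand. The promoters of Mcl1 and Bcl2l1 are shown because these genes, both found in many cells, differed about equally and in opposite directions between control oocytes and control granulosa cells. RefSeq promoter sequences of GRCm38.p6 matched 4 of the 5 genes by symbol. The 250 bases upstream of the start are chr3:95658471-95658720 on the plus strand for Mcl1, and chr2:152831729-152831978 on the minus strand for the outermost of 3 starts of Bcl2l1. They read, from 5′ to 3′, with matches of the E-box letters CANNTG and of the GC box letters GGGCGG on either strand in capitals:

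Mcl1: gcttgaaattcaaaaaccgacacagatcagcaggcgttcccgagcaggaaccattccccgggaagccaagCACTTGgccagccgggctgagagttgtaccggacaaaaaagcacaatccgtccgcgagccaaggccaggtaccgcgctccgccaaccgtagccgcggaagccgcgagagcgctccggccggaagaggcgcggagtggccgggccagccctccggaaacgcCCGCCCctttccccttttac

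Bcl2l1: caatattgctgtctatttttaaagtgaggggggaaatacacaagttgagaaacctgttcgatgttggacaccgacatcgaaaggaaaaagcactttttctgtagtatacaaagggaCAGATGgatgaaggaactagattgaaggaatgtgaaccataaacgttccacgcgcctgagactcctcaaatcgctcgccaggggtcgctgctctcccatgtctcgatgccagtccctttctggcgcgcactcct

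Both windows hold 1 match of CANNTG, which 66.2% of 32851 RefSeq promoters of the same length hold. The Mcl1 window, with 64.4% G and C, also holds 1 match of GGGCGG, found in 32.7% of those promoters, and the Bcl2l1 window, with 47.6% G and C, holds 0. The CRE half-site TGACG, the TATA box letters TATAAA and the FOXO core GTAAACA, held by 17.8%, 12.4% and 3.17% of promoters, have 0 matches in both windows on either strand. A match is a description of letters and no binding was measured here.

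**Figure D1:**
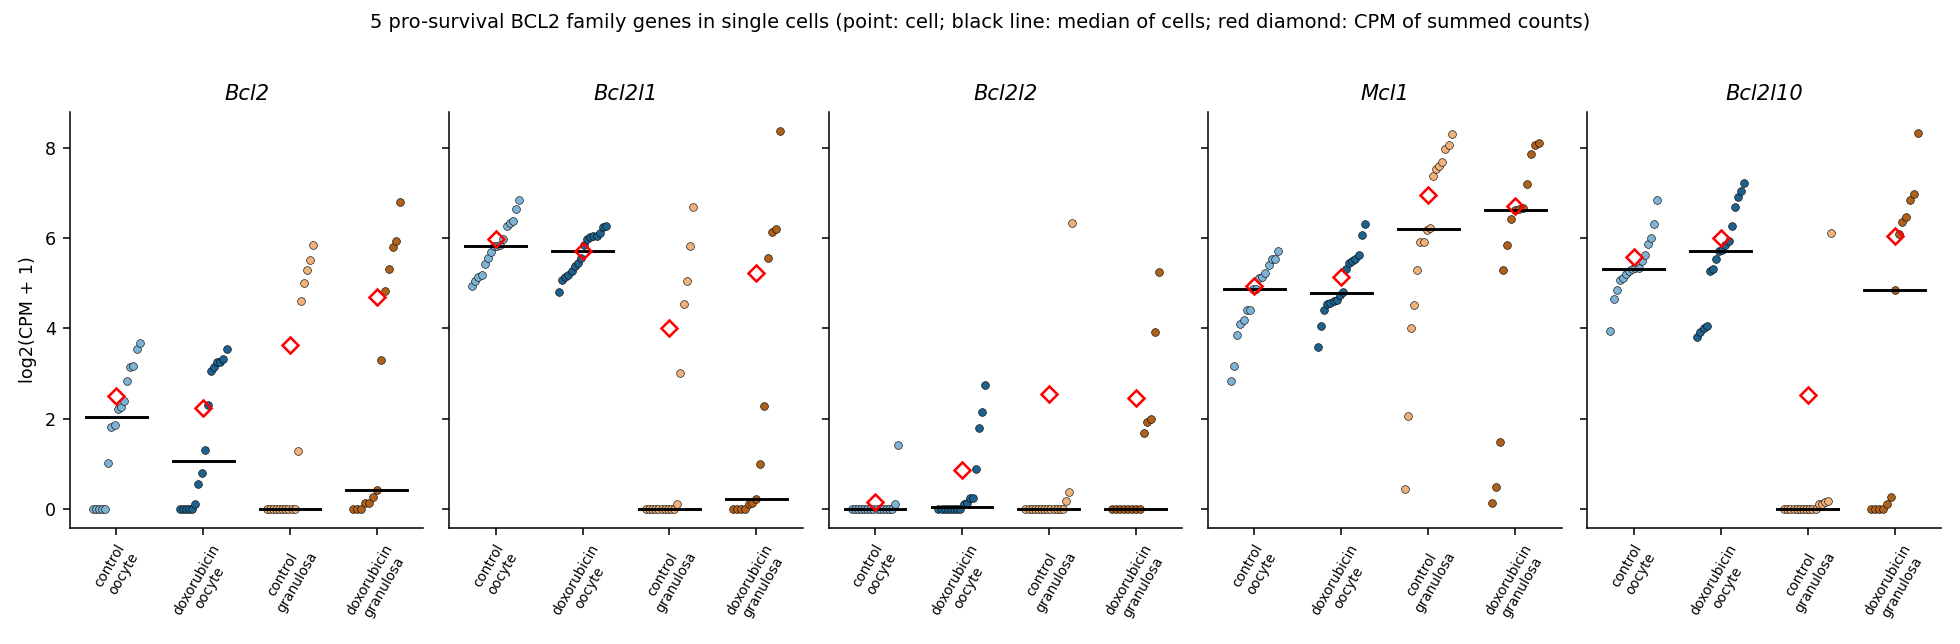
Levels of the 5 genes in each of 61 cells, as log2(CPM + 1) on the vertical axis, with cells in order of their value within 4 groups, the median of the cells as a black line and the level of the summed counts as a red diamond. Bcl2l1, Mcl1 and Bcl2l10 had reads in every oocyte, while in granulosa libraries a few cells carried most counts of each gene but Mcl1.

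In control oocytes the pro-survival transcripts were chiefly Bcl2l10, Bcl2l1 and Mcl1. Bcl2l10 encodes a pro-survival protein known for its expression in oocytes, Bcl2l1 encodes BCL-XL, and Mcl1 encodes a short-lived protein that holds back BAK. Each of the 3 had at least 5 reads in 16 of 16 control oocytes, or 100% (exact binomial interval 79.4% to 100%). Bcl2l10 ranged from 14.4 to 113.4 CPM with a median of 39.2 CPM. Bcl2l1 ranged from 29.8 to 113.6 CPM with a median of 55.6 CPM. Mcl1 ranged from 6.16 to 51.2 CPM with a median of 28.3 CPM. These spreads of about 4-fold to 8-fold between the lowest and the highest cell describe cells of 1 group that received the same solvent.

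The other 2 genes were low in oocytes. Bcl2, the founder of the family, ranged from 0 to 11.7 CPM with a median of 3.16 CPM, and at least 5 reads of it were found in 11 of 16 control oocytes, or 68.8% (41.3% to 89.0%). After every cell was thinned to 1000000 counts, only 5 of 16 did, so that share depends on depth. Bcl2l2, which encodes BCL-W, had 22 counts in all control oocytes together, and 95.5% of them lay in control oocyte 3. Its level of 0.11 CPM (0.070 to 0.17) was the lowest of the 5 genes in this group.

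Levels of different genes were compared only as CPM per kilobase of the longest coding transcript. On that scale Bcl2l10 led in control oocytes with 38.5, followed by Bcl2l1 with 24.1, Mcl1 with 8.66, Bcl2 with 0.65 and Bcl2l2 with 0.029 CPM per kilobase. Bcl2l10 thus made up 53.6% of the summed level of the 5 genes, Bcl2l1 33.5% and Mcl1 12.1%. Cell by cell, Bcl2l10 had the highest level per kilobase in 12 control oocytes and Bcl2l1 in the other 4. The ranges of Bcl2l10 and Bcl2l1 across cells overlapped, while Bcl2 and Bcl2l2 came after the first 3 in the summed counts.

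Control granulosa libraries held a different set, led by Mcl1. Mcl1 ranged from 0.37 to 314.0 CPM with a median of 72.6 CPM, and 15 of 16 libraries had at least 5 reads of it, or 93.8% (69.8% to 99.8%). The other genes were found in few libraries, each of them with a median of 0 CPM. Bcl2 had at least 5 reads in 6 of 16 libraries and reached 56.7 CPM. Bcl2l1 had them in 5 of 16 and reached 102.2 CPM, in control granulosa cell 2, which held 49.4% of the group's counts of the gene. For Bcl2l2 and Bcl2l10 a single library held nearly everything. Control granulosa cell 11 had 99.7% of the Bcl2l2 counts, at 80.3 CPM, and control granulosa cell 3 had 99.5% of the Bcl2l10 counts, at 68.1 CPM.

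Per kilobase, Mcl1 made up 74.1% of the 5 genes in control granulosa libraries, with 36.0 CPM per kilobase, and it led in 12 of 16 libraries. Bcl2l1 led in 3 and Bcl2 in 1. Of the 5 genes, a median of 4 had at least 5 reads in a control oocyte, and a median of 1.5 in a control granulosa library. Only 1 gene was found in 8 of 16 control granulosa libraries. Oocyte libraries also held more genes of any kind, with a median of 13674.5 genes with a count, against 8903.5 in control granulosa libraries, so fewer genes of any kind and fewer pro-survival genes went together. The part of that gap in the detection of the 5 genes was not tested.

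**Figure D2:**
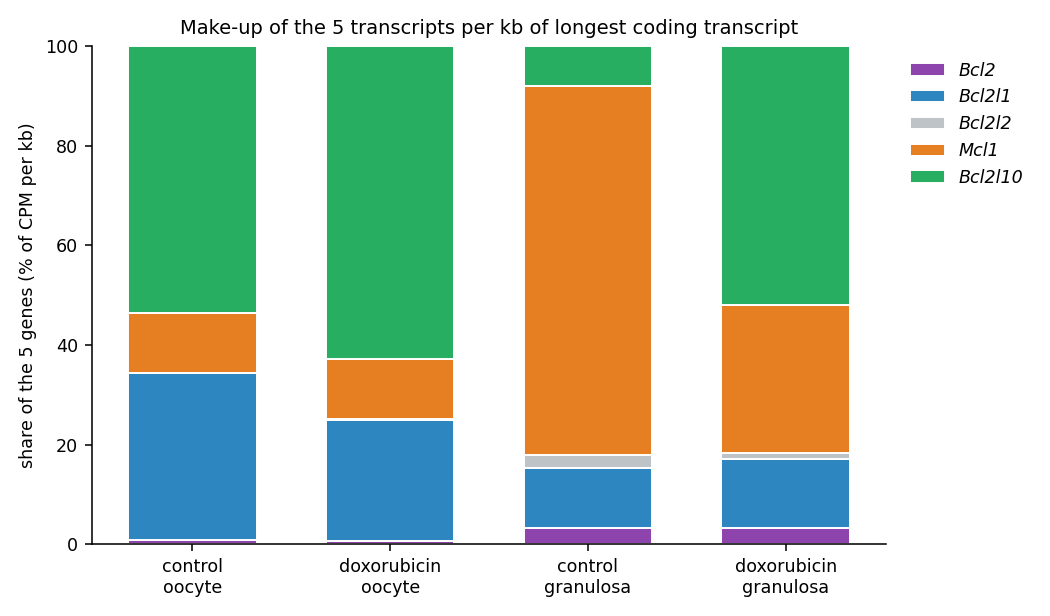
Share of each of the 5 genes in their summed level, in percent of CPM per kilobase of the longest coding transcript, in the 4 groups (bars, from summed counts, 1 sample each). Mcl1 takes 74.1% in control granulosa libraries and 12.1% in control oocytes, and Bcl2l10 takes 53.6% in control oocytes and 51.9% in doxorubicin granulosa libraries. In the last group doxorubicin granulosa cell 4 alone held 41.5% of the Bcl2l10 counts.

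Set against each other, control oocytes had more Bcl2l10 and Bcl2l1 and less Mcl1 and Bcl2 than control granulosa libraries. Of the 4 members that reached 5 CPM in one group or the other, 2 were at least 2-fold higher in oocytes and 2 at least 2-fold lower, where 29% and 31.3% of 12373 genes were. With 4 genes such counts say nothing particular about the family, and Bcl2 and Bcl2l10 passed 5 CPM only through the group in which they were higher. Mcl1 was at 29.6 CPM (28.9 to 30.4) in control oocytes and at 123.0 CPM (121.4 to 124.6) in control granulosa libraries, a log2 ratio of -2.05 (-2.10 to -2.01). Of the 16 granulosa libraries 11 were above every oocyte and 2 were below every one, so the groups overlapped. The ratio stayed between -2.21 and -1.91 when 1 cell at a time was left out, and was -2.30 in the libraries chosen by marker sums. Bcl2l1 had the opposite ratio of 2.03 (1.97 to 2.09), from 61.8 CPM against 15.1 CPM, and 2.91 without control granulosa cell 2. Bcl2l10 had a ratio of 3.31 (3.21 to 3.42), which was 10.94 without control granulosa cell 3, the library that carried nearly all granulosa counts of the gene. In the libraries chosen by marker sums, to which that one did not belong, Bcl2l1 had a ratio of 2.92 and Bcl2l10 one of 10.44.

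For Bcl2 the direction depended on how cells were combined. The summed counts gave 4.64 CPM in control oocytes and 11.4 CPM in control granulosa libraries, a log2 ratio of -1.30 (-1.41 to -1.19), which was -0.93 and so within 2-fold without control granulosa cell 16. The difference of the cells' medians of log2(CPM + 1) was 2.05, because most granulosa libraries had no read and most oocytes had a few. Among cells with at least 5 reads the median was 4.22 CPM in oocytes and 34.8 CPM in granulosa libraries. Bcl2l2 had a ratio of -5.43 (-6.11 to -4.82) that rested on control granulosa cell 11 and was 2.66 without it, so no direction can be read for it. In the libraries chosen by marker sums Bcl2 had a ratio of -1.80 and Bcl2l2 one of -8.15.

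In oocytes the median log2 ratio of the 5 genes, doxorubicin over control, was 0.21, the value of Mcl1 (0.16 to 0.27), beside 0.01 over the 11119 genes that reached 5 CPM in at least 1 oocyte group, whose quartiles were -0.24 and 0.25. The difference of the cells' medians gave -0.10 for the same median. None of the 3 members that reached 5 CPM, Bcl2l1, Mcl1 and Bcl2l10, was at least 2-fold higher or lower, where 6.3% of all genes were higher and 2.45% were lower.

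Bcl2l10 was the member with the largest difference among those 3. Doxorubicin oocytes ranged from 13 to 148.4 CPM with a median of 51.7 CPM, around the control range of 14.4 to 113.4 CPM. Of the 16 doxorubicin oocytes, 3 were above every control oocyte and 2 were below every one, so the drug group was spread more widely on both sides. The summed level was 63.5 CPM (62.3 to 64.6) against 47.0 CPM (46.0 to 47.9), a log2 ratio of 0.43 (0.39 to 0.47). That ratio stayed between 0.28, without doxorubicin oocyte 4, and 0.56 over leaving out 1 cell, and was 0.32 among oocytes with under 200 CPM of granulosa markers. Doxorubicin oocyte 4, whose raw data the series text calls lost, had the highest level and 16.9% of the group's counts.

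Mcl1 was at 34.4 CPM (33.5 to 35.2) in doxorubicin oocytes, a log2 ratio of 0.21. Cells ranged from 11 to 78.7 CPM, and 2 of 16 lay above the highest control oocyte, but the median of 26.4 CPM was below the control median of 28.3 CPM. Among the oocytes low in granulosa markers the ratio was 0.53. Bcl2l1 was slightly lower, at 51.6 CPM (50.5 to 52.6), a log2 ratio of -0.26 (-0.30 to -0.22). Its cells ranged from 26.9 to 76.3 CPM with a median of 51.7 CPM, so that the highest drug-treated oocyte was well below the highest control at 113.6 CPM, and 1 was below the lowest control. The ratio lay between -0.31 and -0.18 over leaving out 1 cell and was -0.30 in oocytes low in granulosa markers.

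Bcl2 and Bcl2l2 stayed below 5 CPM in both oocyte groups. Bcl2 was at 3.68 CPM against 4.64 CPM, a log2 ratio of -0.34 (-0.48 to -0.19), but that was 0.07 without control oocyte 16, the deepest library, -0.57 without doxorubicin oocyte 4 and 0.14 among oocytes low in granulosa markers. Bcl2l2 was found in 4 of 16 drug-treated oocytes, or 25% (7.27% to 52.4%), and in 1 of 16 control oocytes, or 6.25% (0.16% to 30.2%). After thinning, 0 cells of either group had 5 reads. The highest was doxorubicin oocyte 6 at 5.75 CPM. The ratio of 2.84 (2.19 to 3.56) rested on 144 and 22 counts, and it was 5.62 without control oocyte 3 and 2.07 without doxorubicin oocyte 6. Among oocytes low in granulosa markers it was 5.25. The Bcl2l2 span overlaps the start of Gm20521, a protein-coding gene on the same strand at chr14:54883441-54898137, so reads could be split between both rows and all values of Bcl2l2 are uncertain.

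Per kilobase the order in doxorubicin oocytes was that of control oocytes, with Bcl2l10 at 52.0, Bcl2l1 at 20.1 and Mcl1 at 10.1 CPM per kilobase. Bcl2l10 made up 62.8% of the 5 genes and again led in 12 of 16 cells, while Bcl2l1 led in 3 and Mcl1 in 1. The sum of the 5 genes per cell had a median of 62.0 CPM per kilobase in control oocytes, with a range of 34.7 to 120.1. In doxorubicin oocytes the median was 67.9 and the range 34.5 to 154.1, so the sums overlapped over most of their length.

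**Figure D3:**
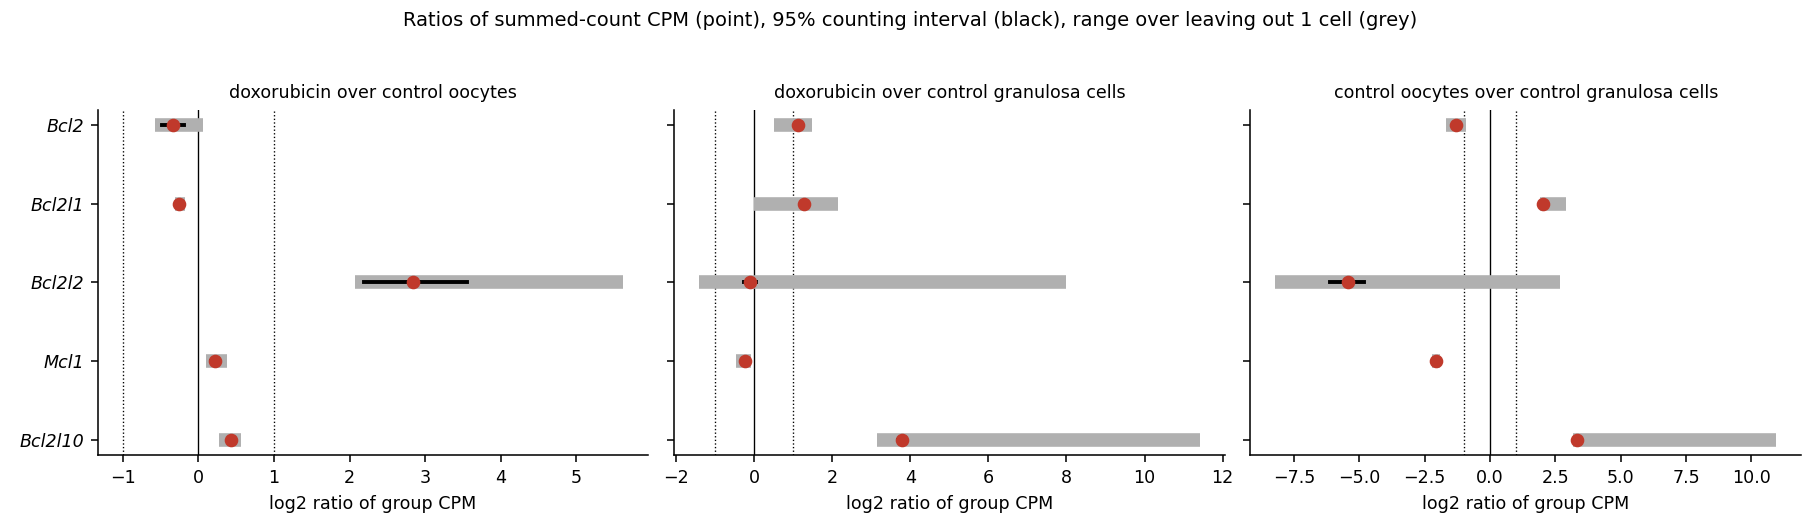
Log2 ratios of group CPM for the 5 genes (points) in 3 comparisons, with the 95% counting interval in black and the range over leaving out 1 cell at a time in grey, each panel on its own horizontal scale with dotted lines at 2-fold. In oocytes all genes but Bcl2l2 lie within 2-fold, and the grey ranges of Bcl2l1, Bcl2l2 and Bcl2l10 in granulosa libraries span far more than counting error.

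Granulosa libraries differed more, and leaving out a single cell moved several of the ratios far. Of the 4 members that reached 5 CPM in one group or the other, Bcl2, Bcl2l1 and Bcl2l10 were at least 2-fold higher after doxorubicin and 0 were 2-fold lower. Over all 12194 genes with at least 5 CPM, 20.6% were at least 2-fold higher and 20% lower, and Bcl2l10 passed 5 CPM only through the drug group. The median log2 ratio of the 5 genes was 1.12, the value of Bcl2 (1.04 to 1.20), beside a median of -0.03 over all genes with quartiles of -0.76 and 0.76. It was -0.01 without doxorubicin granulosa cell 12 and 0.41 as a difference of the cells' medians.

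Bcl2l10 showed the widest gap of all members. Control granulosa libraries ranged from 0 to 68.1 CPM with a median of 0, and 1 of 16 had at least 5 reads, or 6.25% (0.16% to 30.2%). Doxorubicin granulosa libraries ranged from 0 to 319.1 CPM with a median of 27.8 CPM, and 7 of 13 had at least 5 reads, or 53.8% (25.1% to 80.8%), a share that thinning left at 7 of 13. The summed level was 65.2 CPM (63.8 to 66.5) against 4.72 CPM (4.41 to 5.05), a log2 ratio of 3.79 (3.69 to 3.89). That value was 3.14 without doxorubicin granulosa cell 4, which alone held 41.5% of the counts, and 11.41 without control granulosa cell 3. Doxorubicin granulosa libraries and doxorubicin oocytes had similar summed levels, 65.2 and 63.5 CPM, a log2 ratio of oocytes over granulosa libraries of -0.04 that was 0.61 without doxorubicin granulosa cell 4. The medians of their cells were 51.7 CPM in oocytes and 27.8 CPM in granulosa libraries.

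Transcripts of oocyte markers moved with this difference. Among doxorubicin granulosa libraries Bcl2l10 had at least 5 reads in 6 of the 8 in which the oocyte markers summed to more than the granulosa markers, and in 1 of the other 5. In the libraries chosen by marker sums the ratio was 9.53, and all but a few drug-treated counts came from that 1 library, doxorubicin granulosa cell 14. In control libraries the counts were 1 of 6 and 0 of 10, with a highest level of 0.12 CPM in those 10. Across the 29 granulosa libraries log2(CPM + 1) of Bcl2l10 correlated with that of the oocyte marker sum at a Pearson r of 0.53 and a Spearman rho of 0.47, a description of libraries that share groups and depth. Single libraries lay far from that relation. Doxorubicin granulosa cell 1 had the highest oocyte marker sum of its group, 43627 CPM, and no read of Bcl2l10, while doxorubicin granulosa cell 14 had 124.7 CPM of Bcl2l10 with a marker sum of 3261 CPM. Control granulosa cell 3 had 68.1 CPM with a sum of 2238 CPM. The part of oocyte transcripts in the difference between the granulosa groups was not tested.

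The amount of Bcl2l10 per 1000 CPM of oocyte markers was between 0.40 and 3.11 CPM in the 32 oocytes, with a median of 1.04. Over all granulosa libraries its median was 0 in the control and 3.39 in the drug group. The 8 granulosa libraries with at least 5 reads of Bcl2l10 had between 3.39 and 38.2, with a median of 5.40, but they were picked by the gene that the ratio counts, so a high value among them is no finding. The other 21 had at most 0.095, below every oocyte. They are the libraries with fewer than 5 reads of the gene, so a low value among them is no finding either. Among these was control granulosa cell 8 with a marker sum of 17418 CPM. Within oocytes themselves the ratio had a median of 0.95 in the control group and of 1.56 in the drug group, in which the marker sum had a lower median, 34806 against 47909 CPM.

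**Figure D4:**
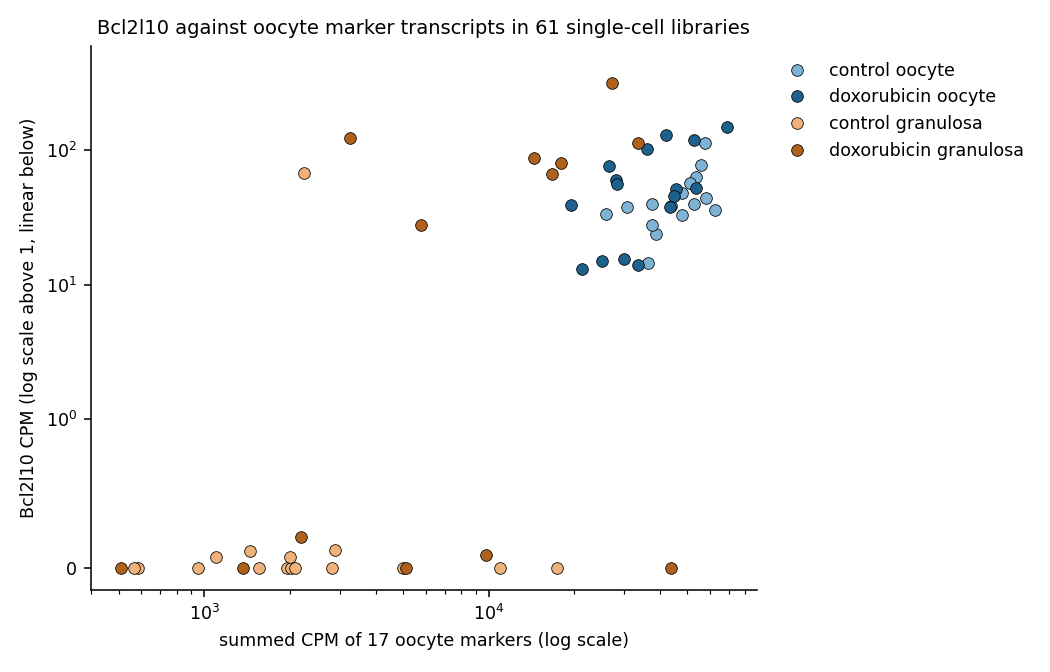
Bcl2l10 CPM (vertical axis, logarithmic above 1 and linear below) against the summed CPM of 17 oocyte markers (horizontal axis, logarithmic) in 61 libraries, coloured by group. Of the 8 granulosa libraries with at least 5 reads of Bcl2l10, 7 lie within the oocytes' range of Bcl2l10, 2 lie within their range of marker sums and 6 below it, and the other 21 lie at or near 0 on the vertical axis.

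Bcl2l1 and Bcl2 were higher in the drug-treated granulosa group through few libraries. Bcl2l1 ranged from 0 to 333.7 CPM in doxorubicin granulosa libraries, and doxorubicin granulosa cell 12, the highest, held 61.6% of the counts. The log2 ratio of 1.27 (1.20 to 1.34) was -0.01 without it and 2.14 without control granulosa cell 2. Both medians were near 0, at 0.16 CPM after the drug and 0 in control libraries, and 6 of 13 against 5 of 16 libraries had at least 5 reads. Bcl2 was at 24.9 CPM (24.1 to 25.7) against 11.4 CPM (10.9 to 11.9), a log2 ratio of 1.12. It ranged up to 110.3 CPM, in doxorubicin granulosa cell 8, and the ratio was 0.50 without that library. In the libraries whose granulosa markers exceeded their oocyte markers the ratio of Bcl2 was 1.83, with at least 5 reads in 4 of 5 drug-treated and 4 of 10 control libraries. There Bcl2l1 had a ratio of 1.31. The highest Bcl2 levels among those drug-treated libraries were 110.3 and 59.9 CPM, in doxorubicin granulosa cells 8 and 13, the latter rich in stroma markers.

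Mcl1 remained the most widely found member in granulosa libraries, with at least 5 reads in 12 of 13 after the drug, or 92.3% (64.0% to 99.8%). It ranged from 0.10 to 273.5 CPM with a median of 97.6 CPM, within the control range but for the lowest library. The summed level was 104.8 CPM (103.1 to 106.5) against 123.0 CPM, a log2 ratio of -0.23 (-0.26 to -0.20), and lay between -0.46 and -0.09 over leaving out 1 cell. The sign turned to 0.18 in the libraries chosen by marker sums and to 0.42 as a difference of the cells' medians, so its direction depends on how cells were chosen and combined. The highest levels among the chosen drug-treated libraries were 273.5 and 231.1 CPM, in doxorubicin granulosa cells 13 and 15, rich in stroma and in blood markers. Bcl2l2 was at 4.47 CPM against 4.85 CPM, a ratio of -0.12 (-0.27 to 0.033) that was 7.98 without control granulosa cell 11 and -1.42 without doxorubicin granulosa cell 2. It was -2.87 in the libraries chosen by marker sums. Over all 13 drug-treated libraries the overlapping Gm20521 was at 35.5 CPM, against 0.26 CPM over the 16 control libraries.

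Per kilobase the order in doxorubicin granulosa libraries was Bcl2l10 at 53.4, Mcl1 at 30.7, Bcl2l1 at 14.2, Bcl2 at 3.46 and Bcl2l2 at 1.17 CPM per kilobase. These levels are from summed counts, and doxorubicin granulosa cell 4 alone held 41.5% of those of Bcl2l10. Mcl1 had the highest level in 7 of 13 libraries, Bcl2l10 in 5 and Bcl2l1 in 1. A median of 3 of the 5 genes had at least 5 reads in a library, against 1.5 in control granulosa libraries. The median sum of the 5 genes was 88.9 CPM per kilobase, against 44.4, with ranges of 11.9 to 265.9 and 0.93 to 129.99 that overlapped.

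Across the 32 oocytes the Pearson correlations of log2(CPM + 1) between pairs of the 5 genes lay between -0.19, for Bcl2l1 and Mcl1, and 0.27, for Bcl2 and Mcl1. Within the 16 control oocytes they lay between -0.46, for Bcl2 and Bcl2l10, and 0.24, and within the 16 doxorubicin oocytes between -0.29 and 0.50, for Bcl2 and Mcl1. The pair of Bcl2 and Bcl2l10 was at 0.28 in the drug group, so its sign was not shared by the groups, and values of this size over few cells and sparse counts are no finding. Bcl2l10 correlated with the sum of the oocyte markers at 0.48, at 0.55 within the 16 control and at 0.57 within the 16 doxorubicin oocytes. Mcl1 correlated with the sum of the granulosa markers at 0.41 over all oocytes, at 0.53 within control and at 0.22 within doxorubicin oocytes. These values describe cells that share a group, and depth and library quality enter both measures.

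Genes whose levels followed each member most closely were ranked by the same correlation among 13268 genes with at least 5 CPM in any group. Over all 61 cells, where the difference between oocytes and granulosa libraries enters every value, the closest to Bcl2l10 were H2-Aa at 0.79 and Atp4a at 0.79. The closest to Bcl2l1 were Ndufaf6 at 0.88 and Gtf2h4 at 0.82. For Mcl1 they were Tsen34 at 0.65 and Rassf1 at 0.58, and for Bcl2 Zmiz1 and Arhgef40, both at 0.52. Bcl2l2 was closest to Eml2 at 0.84 and Oit3 at 0.67, genes with at least 5 reads in 4 and 5 of the 61 cells. Within the 32 oocytes the closest to Bcl2l10 were Acp4 at 0.79 and Ms4a10 at 0.79, and both were higher in the drug group, Acp4 with 110.7 against 41.1 CPM and Ms4a10 with 50.7 against 6.60 CPM. The closest to Bcl2l1 there were Mta3 and B230354K17Rik, both at 0.63, and to Mcl1 Slc38a10 and Ext1, both at 0.65. For Bcl2 they were Renbp at 0.58 and Ap4s1 at 0.57, and for Bcl2l2 Nfatc4 and Ces2g, both at 0.67. Every gene named was picked as the highest of 13268, over few cells, so a high value is no finding. No value was set beside that of unrelated genes.

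Among other genes of the same route, ratios past 2-fold in oocytes were found for BH3-only, effector, apoptosome and stability genes, where the background was again 6.3% higher and 2.45% lower. Of 8 BH3-only genes 5 had at least 5 CPM in either oocyte group, with a median log2 ratio of 0.76 over the 5. Of those, 2 were at least 2-fold higher after doxorubicin. Both, like Bok and Apaf1 below, passed 5 CPM only through the drug group and so had to differ, and their count supports nothing against the background. Pmaip1, which encodes NOXA, a sensor that binds MCL1, was at 19.96 CPM against 2.13 CPM, a log2 ratio of 3.23 (3.08 to 3.38), and 7 of 16 drug-treated oocytes lay above every control oocyte. Bbc3, which encodes PUMA, was at 15.7 CPM against 2.16 CPM, a ratio of 2.86 (2.71 to 3.01), with 10 of 16 above every control. Bid, whose product links caspase-8 to mitochondria, was lower, at 19.3 against 34.1 CPM, a ratio of -0.82.

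Of the effectors, Bax was at 128.1 CPM against 111.0 CPM in oocytes, a log2 ratio of 0.21 (0.18 to 0.23), and Bok at 9.22 against 4.11 CPM, a ratio of 1.17 with a range of 0.37, without doxorubicin oocyte 12, to 1.74 when control oocyte 16 was left out. The third effector, Bak1, was under 5 CPM in all oocytes and is named here after its values were seen, with 0.02 CPM in control oocytes and 0 in drug-treated ones. It was low in granulosa libraries too, at 0.58 CPM in control and 0.056 CPM in doxorubicin libraries. Of 10 apoptosome and caspase genes 8 had at least 5 CPM and 2 were at least 2-fold higher, with a median of 0.50. Apaf1, the core of the apoptosome, had a ratio of 1.57, and 2.28 without control oocyte 4, and Casp6, an executioner caspase, was at 119.4 against 47.3 CPM, a ratio of 1.34, with 9 of 16 cells above every control. Htra2, a mitochondrial protease released with cytochrome c, had a ratio of 0.67.

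Genes of other parts of the route lay nearer to 0 in oocytes. Of 5 IAP genes, which encode inhibitors of apoptosis and cell division proteins, 0 passed 2-fold, with a median of 0.17. Birc5 was at 688.0 against 474.4 CPM, a ratio of 0.54, with 9 of 16 above every control, Birc2 had a ratio of 0.30 and Birc3 one of -0.90. Of 6 genes for ubiquitin ligases, deubiquitinases and other proteins that set the stability of MCL1 or its relatives, 5 had at least 5 CPM and the only one past 2-fold was Fbxw7, a ubiquitin ligase subunit for MCL1. It was at 57.8 against 22.8 CPM, a ratio of 1.35 (1.29 to 1.40), with 8 of 16 above every control. Tpt1 and Huwe1 had ratios of 0.18 and 0.17. The 10 genes for proteins that bind BCL2 members had a median of -0.08 with 0 past 2-fold, and the named ones were Itpr2 at 0.63, Itpr1 at -0.38 and Fkbp8 at -0.36. The 2 BCL2-like genes with at least 5 CPM, Bcl2l12 and Bcl2l13, had ratios of 0.00 and -0.08, and of that list Bcl2l14, Bcl2a1a, Bcl2a1b and Bcl2a1c had no row.

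**Figure D5:**
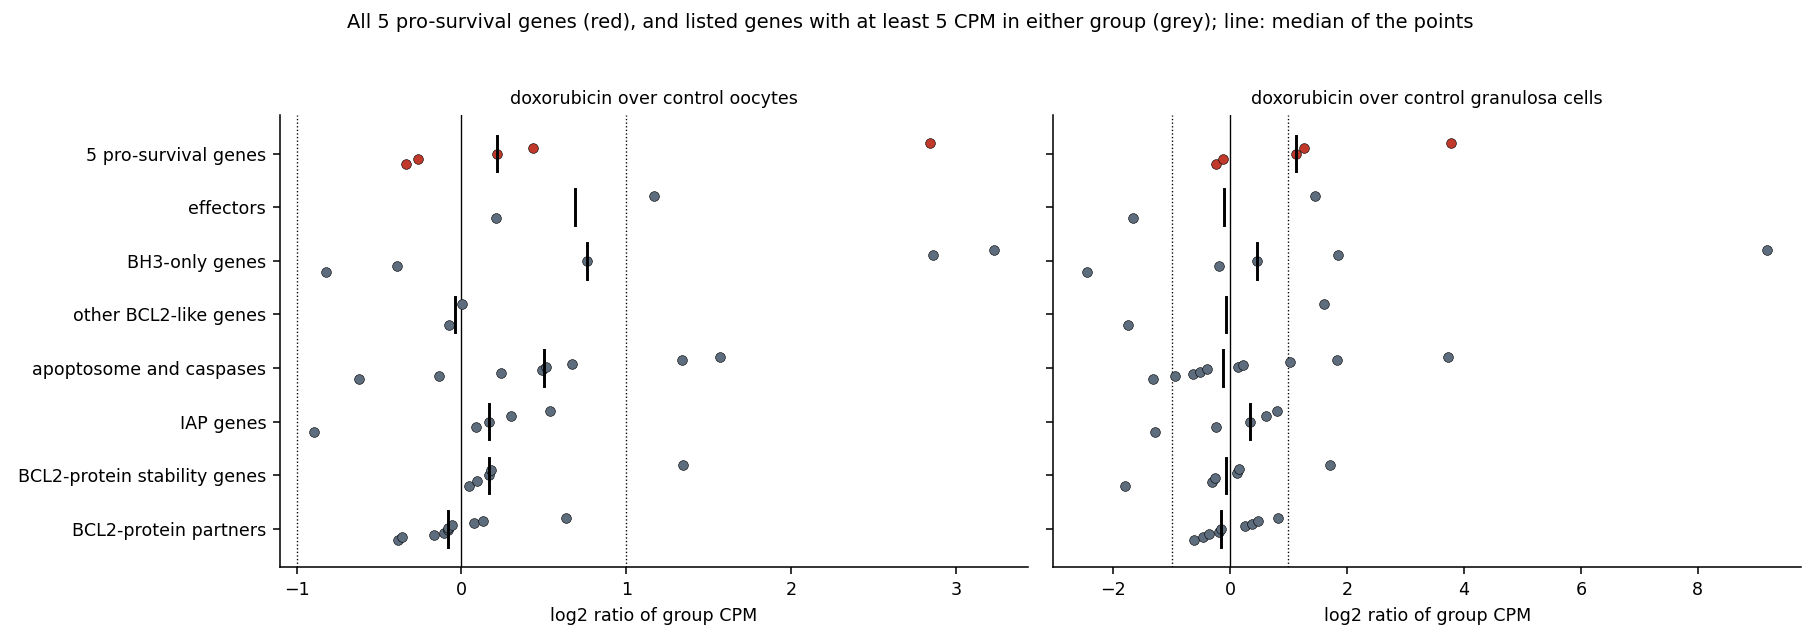
Log2 ratios of doxorubicin over control (horizontal axis, with dotted lines at 2-fold) of the 5 pro-survival genes in red and of genes of 7 other lists that reached 5 CPM in grey, in oocytes on the left and granulosa libraries on the right, each on its own scale, with the median of the points as a line. In oocytes the BH3-only genes Pmaip1 and Bbc3 lie farthest right of the grey points, at 3.23 and 2.86, while 4 of the 5 pro-survival genes lie between -0.34 and 0.43. Pmaip1 and Bbc3 reached 5 CPM only in the drug group, and the red genes are shown without that filter, so the contrast supports nothing.

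In granulosa libraries the same lists were spread to both sides. Of 5 BH3-only genes with at least 5 CPM 2 were at least 2-fold higher and 1 lower, with a median of 0.46, where the background was 20.6% higher and 20% lower. Each of these 3 passed 5 CPM only through the group in which it was higher. Pmaip1 was at 48.6 CPM against 0.08 CPM, a ratio of 9.19 that was 7.16 without doxorubicin granulosa cell 6 and 11.40 without control granulosa cell 7, and Bad had a ratio of -0.19. Bax was at 255.7 against 93.4 CPM, a ratio of 1.45 (1.43 to 1.48) that lay between 1.32 and 1.58 over leaving out 1 cell, with 7 of 13 libraries above every control. Bok went the other way, at 42.3 against 134.3 CPM, a ratio of -1.67 that was -2.27 without doxorubicin granulosa cell 8. Of 10 apoptosome and caspase genes 3 were at least 2-fold higher and 1 lower, with a median of -0.13. Apaf1 had a ratio of 3.72, and 1.80 without doxorubicin granulosa cell 1 and 5.92 without control granulosa cell 11. Casp9, which APAF1 switches on, had one of 1.82, and 3.56 without control granulosa cell 6. For Casp2 the value of -1.32 became -2.04 once doxorubicin granulosa cell 16 was left out. Leaving out control granulosa cell 4 instead moved Casp2 to -0.89 and so within 2-fold.

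The remaining lists in granulosa libraries had medians between -0.15 and 0.34, and their counts stand beside the same background of 20.6% higher and 20% lower. Of 5 IAP genes 0 were higher and 1 lower past 2-fold, with Xiap, an inhibitor of caspases, at -1.28, and -2.26 without doxorubicin granulosa cell 15 and -0.59 without control granulosa cell 5, and with Birc5 at 0.80 and Birc6 at 0.34, and -0.17 without doxorubicin granulosa cell 1. Of 6 stability genes 1 was higher and 1 lower, and Huwe1, Btrc and Usp9x had ratios of -0.30, -0.26 and 0.15, the last of which was -0.39 without doxorubicin granulosa cell 14. The lower one, Usp13, passed 5 CPM only through the control group, so its count supports nothing. Its ratio of -1.80 was 7.88 without control granulosa cell 6. Of 9 partner genes 0 passed 2-fold, with Bag1 at 0.83, Vdac2 at -0.62 and Tmbim6 at 0.47. Of the 2 other BCL2-like genes Bcl2l12 was at 1.60, and 0.88 without doxorubicin granulosa cell 1, and Bcl2l13 at -1.75, and -3.00 without doxorubicin granulosa cell 15.

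Between control oocytes and control granulosa libraries, most execution genes were lower in oocytes. Of 10 apoptosome and caspase genes 6 were at least 2-fold lower and 0 higher in oocytes, with a median log2 ratio of -1.41, where 29% of all genes were higher and 31.3% lower. Apaf1, Casp8 and Bok, and Xiap, Usp13 and Itpr3 of the lists below, passed 5 CPM only through the group in which they were higher, so their counts support nothing. Cycs, which encodes cytochrome c, was at 56.8 against 230.8 CPM, a ratio of -2.02, and 16 of 16 oocytes lay below every granulosa library. Htra2 had a ratio of -2.22. Bok was at 4.11 against 134.3 CPM, a ratio of -5.03, whereas Bax was at 111.0 against 93.4 CPM, a ratio of 0.25. Bid was higher in oocytes with a ratio of 1.88, and 2.86 without control granulosa cell 12, and Bad was lower with -0.73.

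The counts of the other lists in that comparison stand beside the same background of 29% higher and 31.3% lower. IAP genes had a median of 0.07 with 1 higher and 2 lower past 2-fold. Xiap was at -1.89, and -1.20 without control granulosa cell 5, and Birc5 at 1.43. Birc6 was at -1.01, and at -0.77 and so within 2-fold without control granulosa cell 10. Stability genes had a median of 0.02, with Fbxw7 at 0.87 and Tpt1 at -0.74. Huwe1, a ubiquitin ligase for MCL1, was at 1.04, and at 0.94 and so within 2-fold without control granulosa cell 16. Partner genes had a median of 0.30 with 1 higher and 3 lower. Itpr2 and Itpr3 encode calcium channels of the endoplasmic reticulum that BCL2 proteins bind, and had ratios of -3.91 and 2.49, the latter 3.96 without control granulosa cell 16. Vdac1, a channel of the outer mitochondrial membrane, was at -1.76. Bcl2l12 and Bcl2l13 had ratios of -0.34 and -0.14, which were 0.14 without control granulosa cell 7 and 0.41 without control granulosa cell 10.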

How the data were processed

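Per the labels' protocols, the mRNA of each single cell was copied and amplified with an ultra-low-input SMART-seq kit. All cells carry 1 batch label. The values the authors deposited are estimated counts for each gene in each cell, and 34.0% of those above 0 are not whole. The submitters' processing notes name mm10, Partek, Bowtie2, HISAT2 and DESeq2 without roles or versions, and whether counting used strand is not given in the sources used here.

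Estimated counts were rounded, summed over the cells of a group and divided by the summed totals to give CPM. A log2 ratio sets a group under 3 counts to 3 counts, and its 95% interval is the exact conditional binomial interval. Intervals are exact Poisson ones for CPM and Clopper-Pearson ones for shares of cells. With 1 sample per group no test was made. A gene counted as called past 2-fold among genes that reached 5 CPM in one group or the other. No library repeated another of its group within sampling noise, since chi-square per degree of freedom was at least 56.7 for every pair. The calculation was tested on simulated counts.

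The 5 members and the 7 lists of other genes were chosen with earlier results of these data known. All members are named in every comparison. Of each list up to 3 genes are named, those with the largest ratio in either direction among genes with at least 5 reads in at least 50% of the cells of the higher group. A gene that this rule names is not reported here. Of the genes most like a member, the first 2 over all 61 cells and the first 2 within the 32 oocytes are named. Libraries chosen by marker sums are oocytes under 200 CPM of granulosa markers and granulosa libraries with a higher granulosa than oocyte sum. Doxorubicin oocyte 4 was kept. Other ways of combining cells, edgeR TMM factors, DESeq2 size factors, other filters and leaving out each cell were tried. Tools were R 4.3.3, edgeR 4.0.16, DESeq2 1.42.0, Python 3.11.15, scipy 1.17.1, pandas 2.3.3, numpy 2.4.6 and matplotlib 3.10.9.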

Additional observations from a re-analysis of the deposited data

Results flagged for a closer look

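Mcl1 lay on opposite sides of 0 in both cell types. Its log2 ratio of doxorubicin over control was 0.21 in oocytes and -0.23 in granulosa libraries. Both values kept their sign whichever single cell was left out, and both counting intervals left out 0. With 1 sample per group the difference between the cell types was not tested. As a difference of the cells' medians the values were -0.10 and 0.42, and in libraries chosen by marker sums they were 0.53 and 0.18, so the opposite signs rest on the way cells were chosen and combined.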

How the results depend on the processing

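Each group is 1 sample and all intervals cover counting error only. No paired analysis was possible because the results come from no test and the shared cell numbers are not tied to animals. Scaling by TMM or DESeq2 factors moved all ratios by at most 0.06 on the log2 scale and kept the sign of all 15 values of single members. The equal-weight mean of the cells kept 15 signs, libraries chosen by marker sums 13 and the difference of the cells' medians 10. Without doxorubicin oocyte 4 all 5 signs in oocytes were kept.

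The median of the 5 members in oocytes, 0.21, was 0.32 with equal weights, -0.10 as a difference of the cells' medians, 0.32 in libraries chosen by marker sums, and 0.10 to 0.37 over leaving out 1 cell. In granulosa libraries, 1.12 became 0.92, 0.41 and 1.31 under the same settings, and -0.010 to 1.40 over leaving out 1 cell. The lowest came without doxorubicin granulosa cell 12, and Bcl2l1 ranged from -0.010 to 2.14. Between control oocytes and control granulosa libraries, -1.30 became -1.66, 2.05 and -1.80, and -1.70 to 1.99 over leaving out 1 cell. The highest came without control granulosa cell 11, and Bcl2l2 ranged from -8.21 to 2.66. The 2.05 is the value of Bcl2. The cause of these moves was not tested beyond the cells named.

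Counts of genes past 2-fold changed with the filter on low genes. In oocytes 701 higher and 272 lower became 1666 and 835 with a filter of 1 CPM, 245 and 69 with one of 20 CPM, and 4497 and 3267 with none. In granulosa libraries 2511 and 2440 became 1527 and 1464 with 20 CPM, and 4919 and 5157 with none. Between the cell types 3590 and 3868 became 8596 and 6664 with none. With at least 1 read in place of 5, Bcl2 was found in 10 of 13 and Bcl2l10 in 9 of 13 doxorubicin granulosa libraries, against 6 and 5 of 16 in control ones.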
